A study of Mus musculus with 19 samples.

Results

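The 4 genes Creb3l2, Tspan4, Aldh1l1 and Tacc1 were selected on the pileup and significance of a neighbouring peak in the YAP or TEAD ChIP-seq lists of mouse liver. Each gene was examined from 20 kb before to 20 kb after its annotated body (GENCODE for NCBIM37, the mm9 assembly), and every peak of the 6 lists that overlapped such a window was taken. These 4 of 22350 protein-coding genes held 70 of the 82869 peaks. Pileup and significance chose the genes, so the heights and ranks given here are descriptions without a test. The window of Tacc1 held no strong peak, because the strong site that has Tacc1 as its nearest gene lay 73.8 kb upstream of its start, beyond the window.

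ChIP-seq, which sequences the DNA fragments crosslinked to a protein, was performed on whole C57BL/6 liver with the YAP1 63.7 antibody or a TEAD antibody (ARP38276). All mice carried the ROSA26-rtTA-IRES-EGFP allele and ate doxycycline food. The WT groups lacked the tetYAP transgene and had doxycycline for 7 days, so they controlled for the drug but were the only groups without tetYAP. The induced groups carried tetYAP, which encodes the activated YAP S127A protein, and had doxycycline for 3 days (3 d) or 7 days (7 d). Per the study's methods, tetYAP mice were crossed to an albumin-driven Cre line, and the albumin promoter is active in hepatocytes. The liver tissue sampled also holds other cells, and the labels do not say whether WT mice carried Cre. YAP samples were crosslinked with a protein-protein crosslinker before formaldehyde and TEAD samples with formaldehyde alone. The 19 samples (3 per group, 4 for TEAD 7 d) had been merged into 1 list per group, so no value here has a replicate error, and intervals cover counting error only. The merged libraries held between 34260362 (YAP 7 d) and 55032002 (TEAD 3 d) tags.

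YAP is a coactivator that the Hippo kinases keep out of the nucleus, and it reaches DNA mainly through the TEAD factors, which recognise the core GGAATG. Livers with active YAP grow and lose hepatocyte features. The 4 genes have unlike roles. Creb3l2 encodes a bZIP transcription factor that is anchored in the endoplasmic reticulum membrane and is cleaved to enter the nucleus. Tspan4 encodes a tetraspanin, a membrane scaffold protein found in migrasomes. Aldh1l1 encodes a cytosolic dehydrogenase that oxidises formyl-tetrahydrofolate and is abundant in hepatocytes. Tacc1 encodes a coiled-coil protein of the centrosome and microtubules.

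The sequences at the summits of the 4 strong sites are printed because they show the TEAD cores that the peak heights are set beside. Each is the NCBIM37 (mm9) plus strand, 90 bp on either side of the TEAD 7 d summit, with GGAATG or its reverse complement CATTCC in capitals. The windows are chr6:37392221-37392401 for Creb3l2, chr7:148662456-148662636 for Tspan4, chr6:90458319-90458499 for Aldh1l1 and chr8:26385622-26385802 for the site upstream of Tacc1.
Creb3l2: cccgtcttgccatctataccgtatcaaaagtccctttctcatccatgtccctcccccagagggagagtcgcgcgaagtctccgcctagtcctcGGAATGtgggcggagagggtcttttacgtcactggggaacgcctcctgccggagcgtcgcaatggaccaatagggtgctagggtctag
Tspan4: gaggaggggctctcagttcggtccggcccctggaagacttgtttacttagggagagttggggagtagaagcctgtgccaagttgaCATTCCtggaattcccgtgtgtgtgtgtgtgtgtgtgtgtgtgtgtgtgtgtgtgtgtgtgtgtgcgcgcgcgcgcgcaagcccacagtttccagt
Aldh1l1: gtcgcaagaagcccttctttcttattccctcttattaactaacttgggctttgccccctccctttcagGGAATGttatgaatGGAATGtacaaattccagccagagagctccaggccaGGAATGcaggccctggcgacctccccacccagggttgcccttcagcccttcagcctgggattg
Tacc1 upstream: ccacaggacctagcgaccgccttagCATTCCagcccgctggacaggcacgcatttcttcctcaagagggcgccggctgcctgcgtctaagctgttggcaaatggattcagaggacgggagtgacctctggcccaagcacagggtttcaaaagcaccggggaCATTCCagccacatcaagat
The Creb3l2 and Tspan4 windows have 1 core each, the Aldh1l1 window has 3 in the same orientation and the window upstream of Tacc1 has 2 that lie near its ends. The Tspan4 core is followed by a run of TG repeats.

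All 3 windows other than that of Tacc1 held a single strong TEAD site, at which the YAP peak also lay. Over the 4 windows, the WT, 3 d and 7 d lists held 0, 1 and 3 YAP peaks and 4, 30 and 32 TEAD peaks. A YAP 7 d peak was found in 3 of the 4 windows, against 6.34% of all protein-coding genes with windows drawn the same way, and a YAP 3 d peak in 1 of 4, against 0.192%. No member had a YAP peak in WT livers, where 0.139% of genes had one. TEAD was called in 3 of the 4 windows in the WT list (25.4% of genes), in 3 of 4 after 3 d (65.3%) and in 4 of 4 after 7 d (66.5%). These shares follow from the choice of the genes.

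**Figure D1:**
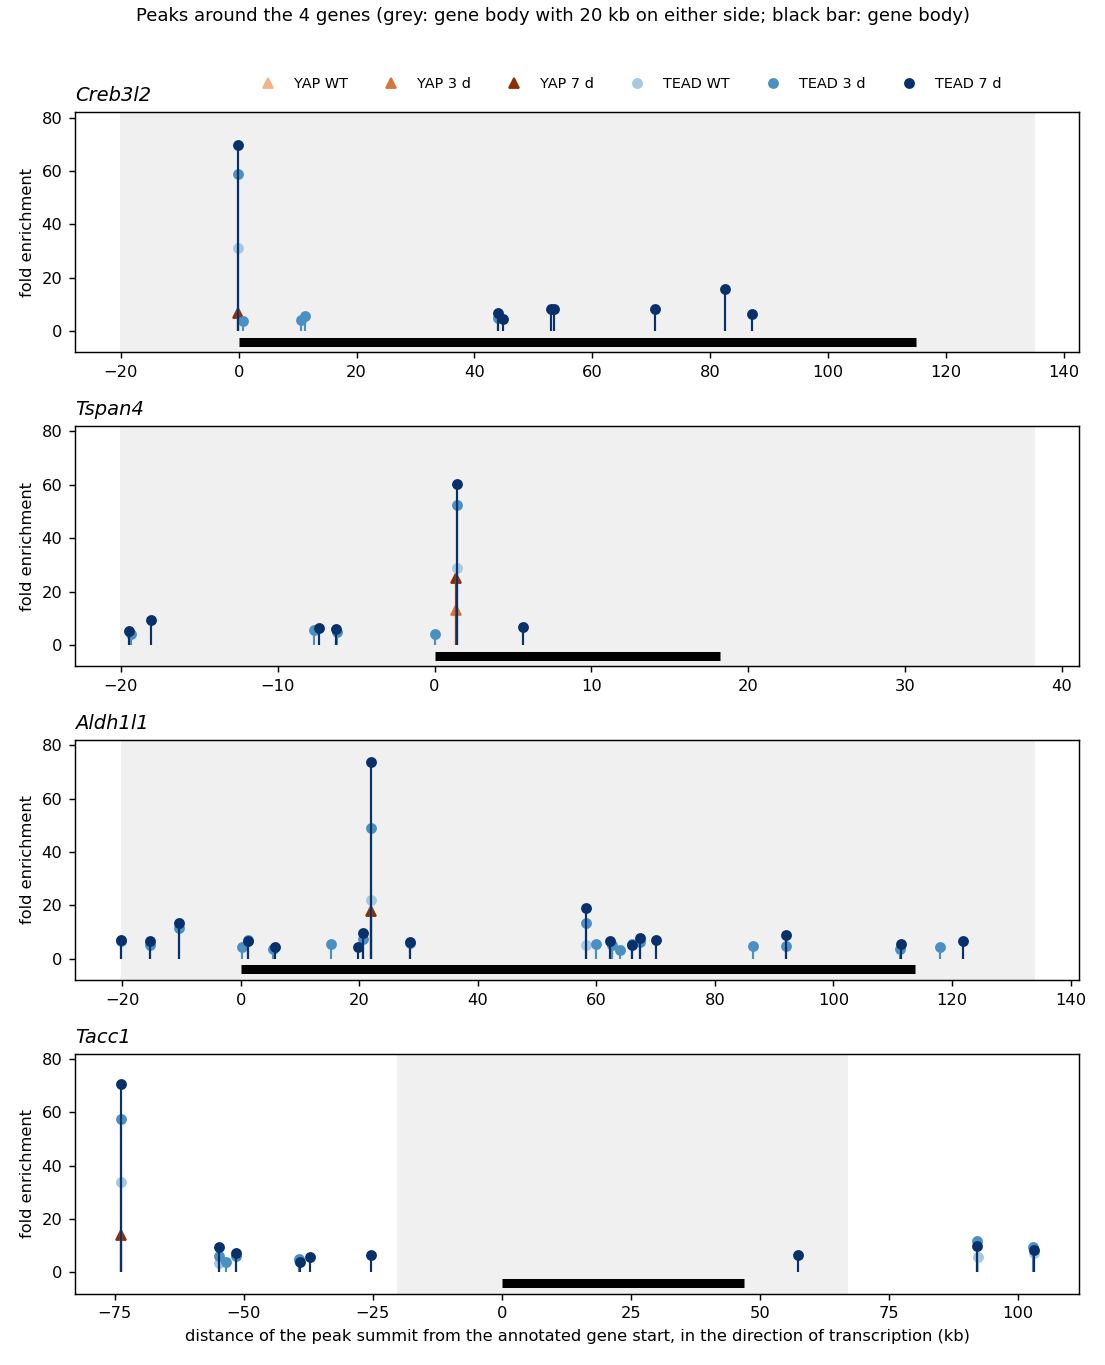
Fold enrichment of each peak (y axis) against the distance of its summit from the annotated gene start in kb (x axis), for Creb3l2, Tspan4, Aldh1l1 and Tacc1, with circles for TEAD and triangles for YAP in WT, 3 d and 7 d livers. A single tall site stands in each of the first 3 windows, and the tall site of the Tacc1 panel lies to the left of the grey window.

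Creb3l2 had its strong site at its own promoter. The summit of the TEAD 7 d peak lay 165 bp upstream of the GENCODE start of the gene (ENSMUSG00000038648.5, minus strand, chr6:37277255-37392146) and 163 bp upstream of its RefSeq start. The next coding start, that of Akr1d1, was 87.9 kb away, and no other gene overlapped the window. The TEAD pileup, the number of extended fragments over the summit, was 234 (95% Poisson interval 205 to 266) in WT livers. It was 358 (322 to 397) after 3 d and 296 (263 to 332) after 7 d. The 3 d peak ranked 1 of 36446 by pileup, by p-value and by fold enrichment. The WT peak ranked 15 of 5695 by pileup and the 7 d peak 32 of 38984. The TEAD peaks at this promoter were thus among the tallest of their lists in livers without the transgene as well as after induction.

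The YAP peak at the Creb3l2 promoter was small beside the TEAD peak. It was called at 7 d only, with a pileup of 31 (21.1 to 44.0), 6.77-fold over background, and ranked 545 of 1478. Its height per 1000000 tags (RPM) was 0.905 (0.615 to 1.28). The lowest peak called at the genome-average background had 0.552 RPM in the 3 d list and 0.439 RPM in the WT list, and neither list gives a value at this promoter.

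Tspan4 had the second tallest called YAP peak by significance and fold. Its site lay in an intron, 1.41 kb downstream of the GENCODE gene start (ENSMUSG00000025511.8, plus strand, chr7:148661139-148679326) and 247 bp downstream of an internal transcript start. RefSeq starts matched to the genome lay 1411 bp and 267 bp upstream of the summit, so the site lies near an alternative annotated start. Unlike Creb3l2, Tspan4 sits in a crowded stretch: Polr2l starts 1.51 kb from the summit on the other strand and Cd151, another tetraspanin gene, starts 7.86 kb away. The peak lists do not say which of these genes the site acts on.

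YAP at the Tspan4 site had no called peak in WT livers, a pileup of 63 (48.4 to 80.6) at 3 d and of 114 (94.0 to 137) at 7 d. In RPM these were 1.74 and 3.33, a ratio of 1.91 (1.39 to 2.65, conditional binomial interval). It was the only member site with a YAP peak at 3 d. Among the 91 YAP 7 d peaks that overlapped a 3 d peak, the median ratio of fold enrichment was 0.97, and 2.20% reached 2. The letters GGAATG lay within 150 bp of the summit in 16.5% of YAP 3 d peaks, 16.7% of YAP WT peaks and 64.6% of YAP 7 d peaks. The median of the matched peaks therefore need not describe sites with a TEAD core. By pileup the peak ranked 17 of 110 at 3 d and 8 of 1478 at 7 d, and by p-value it ranked 2 in both lists. Fold enrichment was under 2 in 8 of the 16 peaks above it by pileup at 3 d and in 6 of the 7 at 7 d, meaning that their background was high too.

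TEAD at the Tspan4 site had a WT pileup of 217 (189 to 248), a 3 d pileup of 319 (285 to 356) and a 7 d pileup of 256 (226 to 289). It ranked 18, 13 and 87 in the 3 lists. TEAD was the lowest here of the 4 strong sites at 7 d, at 60.3-fold, whereas YAP was the highest, at 24.9-fold.

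Aldh1l1 had its strong site inside the gene, away from any annotated start. The summit lay in an intron 22.0 kb downstream of the GENCODE start (ENSMUSG00000030088.9, plus strand, chr6:90436421-90550197). The RefSeq start of Aldh1l1 lay 42.4 kb downstream of the summit, close to the GENCODE start of the coding Aldh1l1 transcripts, so the site is upstream of those and lies within a putative non-coding transcript. Klf15 starts 43.1 kb away on the other side. The YAP peak was called at 7 d only, with a pileup of 82 (65.2 to 102), 17.9-fold over background, and ranked 11 of 1478 by pileup and 3 by fold. The TEAD pileups in the WT, 3 d and 7 d lists were 164 (140 to 191), 298 (265 to 334) and 313 (279 to 350), with ranks of 36, 26 and 18. The called peak was 754 bp wide in the WT list, 1579 bp at 3 d and 2080 bp at 7 d. The WT list was called with the longest fragments. At the genome-average background the lowest pileup called was 24 (WT), 20 (3 d) and 16 (7 d), and the effect of this limit on width was not tested. In the same order, the called widths were 861, 1343 and 1324 bp upstream of Tacc1. They were 738, 863 and 822 bp at Creb3l2, and 776, 971 and 736 bp at Tspan4.

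The Aldh1l1 window also held the largest number of TEAD sites. Its 154 kb held 23 separate sites, the strong site included, compared with 11 in the 155 kb around Creb3l2 and 7 in the 58.2 kb around Tspan4. Some of the 23 lay in introns of Klf15 or at Slc41a3 rather than in Aldh1l1. Besides the strong site, 1 further Aldh1l1 site was called in all 3 TEAD lists: it lay in an intron at chr6:90494243-90494990 and had a fold enrichment of 5.05 (WT), 13.5 (3 d) and 18.9 (7 d), the highest of the weaker sites in the 4 windows. A site 10.4 kb upstream of the GENCODE gene start, and so farther from the RefSeq start, reached 11.3-fold at 3 d and 13.2-fold at 7 d. It was not called in WT livers.

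The weaker sites were shared between time points to unlike extents. At Aldh1l1, 11 sites were called at 3 d and 7 d but not in WT livers, 7 at 3 d only and 3 at 7 d only. At Creb3l2 the corresponding numbers were 1, 3 and 6, and at Tspan4 they were 3, 1 and 2. The 6 late Creb3l2 sites were intronic, 44.8 to 87.1 kb downstream of the start, and the tallest had 15.8-fold enrichment. At Tspan4, 4 of the 6 weaker sites lay at Pnpla2 or Cd151 rather than in Tspan4 itself. Over the 4 windows, 4 sites were called in all 3 TEAD lists, 15 at 3 d and 7 d only, 11 at 3 d only and 12 at 7 d only. Over the whole lists, 5664 of the 36446 TEAD 3 d peaks and 5516 of the 38984 TEAD 7 d peaks overlapped a WT peak. Of the TEAD 7 d peaks, 27753 overlapped a 3 d peak. Absence from the WT list is therefore the usual pattern and no trait of these genes. The weaker TEAD 7 d peaks had a median of 6.71-fold. Peaks at the genome-average background were called from a pileup of 24 in the WT list, 20 at 3 d and 16 at 7 d. In RPM these limits were 0.682, 0.363 and 0.415. A weak site under the WT limit would go uncalled there at the same height. Its absence from the WT list is therefore no measured gain.

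The Tacc1 window held 1 peak, of TEAD at 7 d. It covered chr8:26254446-26254656 and lay 10.4 kb beyond the 3′ end of the gene (ENSMUSG00000065954.4, minus strand, chr8:26265024-26311921), with Plekha2 as the nearest coding start, 41.9 kb away. Its pileup was 28, its fold enrichment 6.60 and its rank 25402 of 38984. No YAP peak lay in the window.

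The strong site upstream of Tacc1 was added after its values were seen. It was intergenic, with the nearest edge of its TEAD 3 d peak 73.1 kb from the gene and with the next coding starts, those of Plekha2, Htra4 and Fgfr1, at 173, 236 and 238 kb. The WT, 3 d and 7 d TEAD pileups were 256 (226 to 289), 351 (315 to 390) and 299 (266 to 335). It ranked 11 of 5695, 2 of 36446 and 27 of 38984, so only the Creb3l2 promoter stood above it at 3 d. YAP was called at 7 d only, with a pileup of 64 (49.3 to 81.7), 14.0-fold over background and rank 26 of 1478. Distance is the sole link between this site and Tacc1 in these data.

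Near the edges of the Aldh1l1, Tspan4 and Tacc1 windows, the nearest peaks had low values. For Aldh1l1 a 6.55-fold peak overlapped the edge of the window and a 3.99-fold peak lay 21.0 kb from the gene. For Tspan4 a 4.12-fold peak lay 19.2 kb from the gene and a 5.89-fold peak 22.7 kb. Beyond the Tacc1 window, a 6.36-fold peak lay 25.1 kb from the gene. For Creb3l2 the promoter peak was the last inside on the upstream side, and beyond it an 8.86-fold peak lay 37.7 kb from the gene body.

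How much TEAD rose at these sites depended on the scale. As fold enrichment over background, the TEAD peaks were higher at 7 d than in WT livers by 2.24 times at Creb3l2, 2.09 at Tspan4, 3.38 at Aldh1l1 and 2.07 upstream of Tacc1. All 4 ratios were at least 2, as were 81.6% of the 5516 TEAD 7 d peaks matched to a WT peak by overlap, whose median was 3.10. At 3 d the ratios were 1.89, 1.82, 2.24 and 1.69, so 1 of 4 reached 2, against 62.4% of 5664 matched peaks. However, fragments were extended to 400 bp in the WT list and to 207 and 206 bp in the induced lists. At all 4 sites the background was the genome average, which grows with this length, and it alone multiplies the ratios by 1.93 and 1.94.

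In RPM, TEAD at these sites differed less. The 3 d to WT ratio was 0.98 at Creb3l2 (0.83 to 1.16), 0.94 at Tspan4 (0.79 to 1.12), 1.16 at Aldh1l1 (0.96 to 1.41) and 0.88 upstream of Tacc1 (0.74 to 1.03). The median of all matched peaks was 1.19. The 7 d to WT ratio was 1.15 at Creb3l2 (0.97 to 1.38), 1.08 at Tspan4 (0.90 to 1.30), 1.74 at Aldh1l1 (1.44 to 2.12) and 1.07 upstream of Tacc1 (0.90 to 1.26), with a median of 1.64 over all matched peaks. The Aldh1l1 ratio was the highest of the 4 and close to that median. These pileups are among the values that chose the genes, so the ratios describe the sites and test nothing. A pileup of longer fragments also gathers more fragments per site, so the RPM ratios against WT are not free of the difference in fragment length. With duplicates removed, the fragment length also limits how tall a pileup can grow. This limit was higher in the WT list than in the induced lists. It can lower the ratios of tall peaks such as these relative to the medians, in RPM and in fold enrichment. Its effect was not tested.

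The 7 d and 3 d TEAD lists had nearly equal fragment lengths, so their ratios are free of that difference. The libraries differed in depth, with 38523843 tags at 7 d and 55032002 at 3 d. The limit on pileup is therefore lower in RPM at 3 d, and how far it affected the tall 3 d peaks was not tested. The ratios below, and their place relative to the median, are given with that reservation. TEAD in RPM was 1.18 times as high at 7 d at Creb3l2 (1.01 to 1.38), 1.15 at Tspan4 (0.97 to 1.36), 1.50 at Aldh1l1 (1.28 to 1.76) and 1.22 upstream of Tacc1 (1.04 to 1.42). The median of 27753 matched peaks was 1.33. Only the Aldh1l1 ratio was above this median. No site reached a fold enrichment ratio of 2, against 11.5% of matched peaks.

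**Figure D2:**
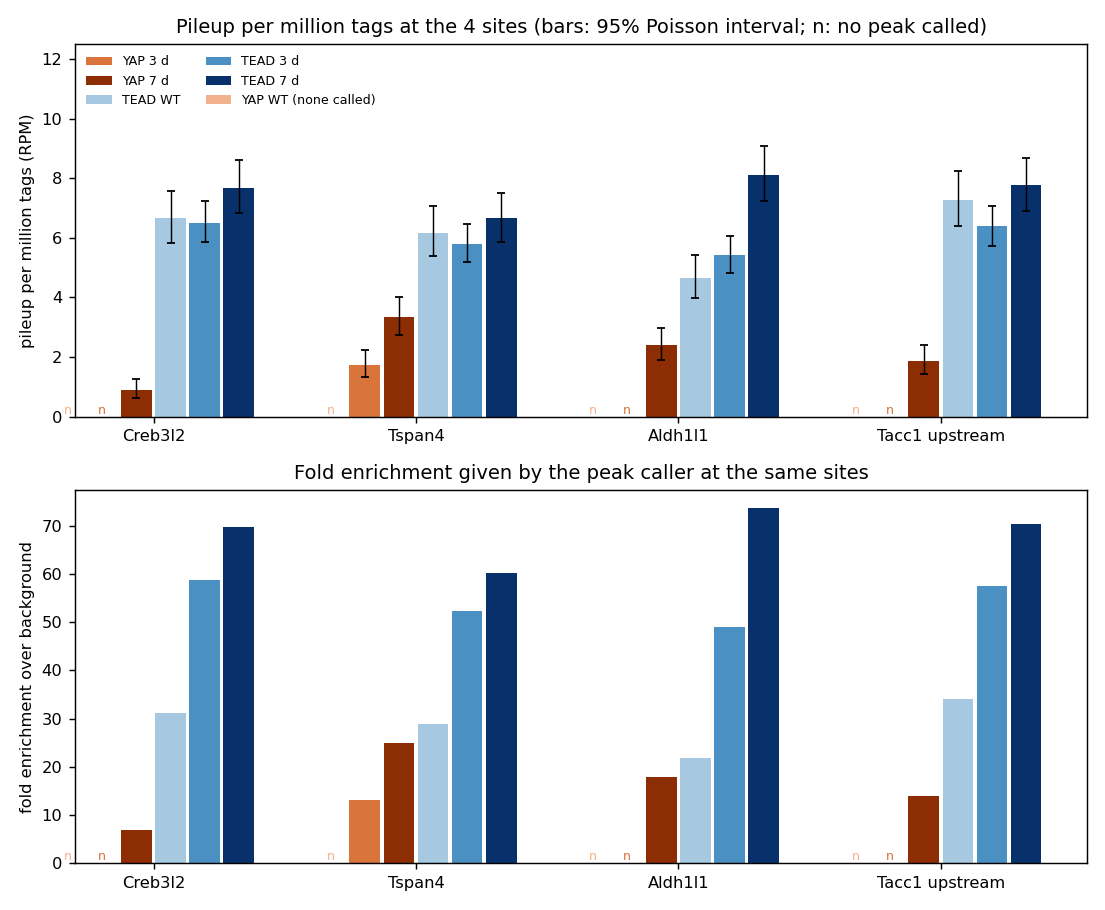
Pileup in RPM (upper y axis, bars with 95% Poisson intervals) and fold enrichment over background (lower y axis) at the 4 strong sites in each list, with n where no peak was called. In RPM, TEAD ran from 4.66 at Aldh1l1 in WT livers to 8.12 at Aldh1l1 at 7 d, and YAP at 7 d from 0.905 at Creb3l2 to 3.33 at Tspan4.

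The 4 sites differed more in YAP than in TEAD height, as a description, since the sites were chosen on the heights of one or the other. At 7 d the TEAD fold enrichment ran from 60.3 at Tspan4 to 73.8 at Aldh1l1. The TEAD pileup of Creb3l2 was 1.16 times that of Tspan4 (0.97 to 1.37), and the TEAD pileup intervals of the 4 sites overlapped. The YAP pileup of Tspan4 was 3.68 times that of Creb3l2 (2.45 to 5.66). The YAP fold enrichment divided by that of TEAD was 0.41 at Tspan4, 0.24 at Aldh1l1, 0.20 upstream of Tacc1 and 0.10 at Creb3l2. Over the 1407 YAP 7 d peaks at a TEAD peak the median was 0.20, and 91.8% of them were below Tspan4 and 0.711% below Creb3l2. YAP 7 d peaks at the genome-average background were called only from a pileup of 19, which keeps low quotients from arising at weaker TEAD peaks. Among the 49 YAP peaks at TEAD peaks of at least the Tspan4 fold, YAP ranged from 4.93-fold to 25.3-fold with a median of 10.7. In that order Tspan4 was 2, Aldh1l1 3, the site upstream of Tacc1 9 and Creb3l2 47. The antibodies and crosslinking differ between YAP and TEAD, so the quotient ranks sites but is not a ratio of bound protein.

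**Figure D3:**
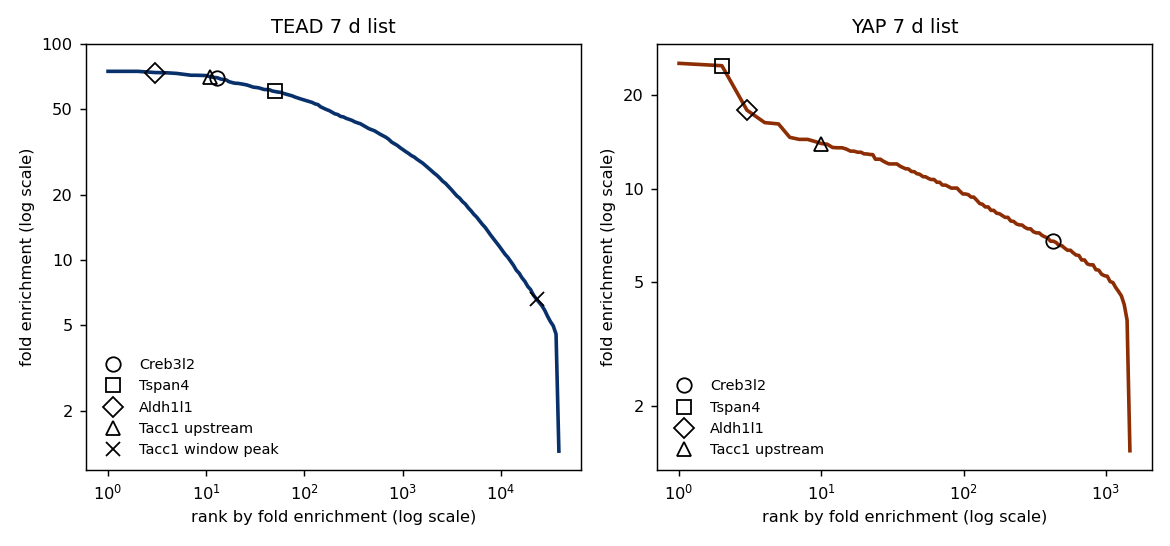
Fold enrichment (y axis, log scale) against rank by fold enrichment (x axis, log scale) over the TEAD 7 d list and the YAP 7 d list, with the 4 strong sites as open symbols and the peak of the Tacc1 window as a cross. All 4 sites lie in the top 50 of the TEAD list, whereas in the YAP list they run from rank 2 (Tspan4) to rank 428 (Creb3l2).

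The YAP 7 d peaks of the windows lay at the strong TEAD sites, which follows from how the genes were chosen. Of the 32 TEAD 7 d peaks in the 4 windows, 3 had a YAP peak (9.38%), and 3.58% of all TEAD 7 d peaks had one. These were the strong sites of Creb3l2, Tspan4 and Aldh1l1. The other 29 peaks, with a fold enrichment of 4.30 to 18.94 and a median of 6.71, had none, and 3 of 29 peaks, taken as the limit for a count of 0, allows a share of up to 10.3%. Of all TEAD 7 d peaks no stronger than these, 0.710% had a YAP peak, so the absence at these 29 is what most weak peaks show. Of the 50 TEAD 7 d peaks at least as enriched as the Tspan4 peak, 49 had one (98.0%, 89.5% to 99.6%).

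The summits of YAP and TEAD lay close together at the strong sites. At Creb3l2 the summits of the 4 lists with a peak fell within 4 bp, and the YAP summit was 1 bp from that of TEAD at 7 d. At Tspan4 the YAP summits lay 10 bp (7 d) and 44 bp (3 d) from it, and the 5 summits spanned 52 bp. At Aldh1l1 the distance was 20 bp. Upstream of Tacc1 it was 26 bp, but there the YAP 7 d, TEAD WT and TEAD 3 d summits fell within 1 bp of each other and TEAD 7 d stood apart. The median distance over 1407 overlapping pairs was 34.0 bp (quartiles 15 and 67), with 18.6% within 10 bp.

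The TEAD core GGAATG, searched on both strands within 150 bp of the TEAD 7 d summit, was found at all 4 strong sites. It occurred in 39.0% of all TEAD 7 d peaks, in 86.0% of the 100 most enriched, and in 9 of the 29 weaker window peaks (31.0%, 17.3% to 49.2%). Creb3l2 had 1 match and Tspan4 had 1, centred 6 bp and 2 bp from the summit. Aldh1l1 had 3, at 20, 6 and 30 bp, all on the plus strand. At least 3 matches were found in 0.883% of all peaks and in 10 of the 100 most enriched. The site upstream of Tacc1 had 2, which were 62 bp before and 74 bp after the TEAD 7 d summit, so that the summits of all lists fell between them. The nearest match lay a median of 24.5 bp from the summit over all TEAD 7 d peaks with a core and 7.50 bp over the 86 such peaks of the 100 most enriched, of which 5 had it more than 60 bp away. The peak of the Tacc1 window had no match.

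**Figure D4:**
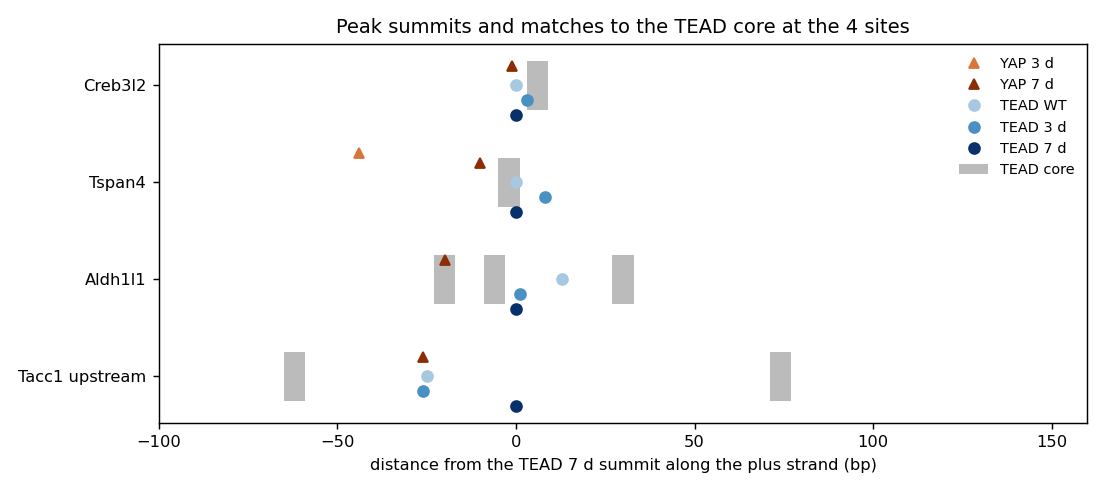
Position of each peak summit (circles TEAD, triangles YAP) and of each GGAATG match (grey bars) at the 4 strong sites, as distance from the TEAD 7 d summit along the plus strand in bp (x axis). The nearest match lies within 6 bp of that summit at Creb3l2, Tspan4 and Aldh1l1, and matches lie on either side of all summits upstream of Tacc1.

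Motifs of other factors were searched in the same windows. The AP-1 letters TGANTCA and the HNF4 letters CAAAGTCCA were found at 0 of 4 sites, and occur in 11.9% and 2.02% of TEAD 7 d peaks. The FOXA letters TGTTTNC were found at 1 of 4, Tspan4, 48 bp from the summit, and in 30.1% of TEAD 7 d peaks. None of these motifs overlapped a TEAD core at the 4 sites. The windows were rich in G and C, with 57.1% at Creb3l2, 58.5% at Tspan4, 54.8% at Aldh1l1 and 56.1% upstream of Tacc1, compared with a median of 47.2% over all TEAD 7 d peaks. A match is a run of letters and no measure of binding by the factor named.

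Relatives of the 4 genes were examined in windows of the same kind, where 6.34% of all genes had a YAP 7 d peak and 25.4%, 65.3% and 66.5% had a TEAD peak in the WT, 3 d and 7 d lists. The lists of relatives include the member itself, which was chosen for its peak. Of 24 tetraspanin genes, 2 had a YAP 7 d peak (8.33%), Tspan4 and Cd151, and both owe it to the Tspan4 site. TEAD was called at 5, 16 and 16 of the 24 in the WT, 3 d and 7 d lists. Of 20 folate enzyme genes, 2 had a YAP 7 d peak (10%): Aldh1l1, and Mthfd1l, the mitochondrial formyl-tetrahydrofolate synthetase, whose intronic YAP peak was 5.24-fold. TEAD was called at 8, 19 and 18 of these 20 genes. Window length was not adjusted for in these counts, and long genes hold more peaks.

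Among 13 genes of membrane-bound bZIP factors and the endoplasmic reticulum stress response, 4 had a YAP 7 d peak (30.8%, against 6.34% of all genes) and 8, 13 and 13 had a TEAD peak. The list was drawn up with earlier results known and includes a member, so this share is a description without a test. The 4 genes with a YAP peak were Creb3l2, a member chosen for its peak, its paralogue Creb3, Atf6, another membrane-bound stress factor, and Eif2ak3, which encodes the stress kinase PERK. The Creb3 window held a YAP peak of 13.5-fold, taller than that of Creb3l2, in an intron of the neighbouring gene Tln1. The Eif2ak3 peak was 6.99-fold and intergenic. The Atf6 peak was 4.80-fold and lay in an intron of Dusp12. Of 8 genes of TACC proteins and their partners, Tacc2 alone had a YAP 7 d peak within 20 kb, and TEAD was called at 5, 7 and 8 of them. The Tacc2 peak was 6.44-fold and 0.277 kb from its start, in annotated introns of both Tacc2 and Fgfr2.

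Genes with a similar profile over the 6 lists were found by the distance between the log2 of fold enrichment plus 1 of the strongest peak in each window. A list without a peak counted as 0, and genes whose windows overlapped that of the member were left out. Nearest to Creb3l2 were Gemin5 and Mrpl22, which share a site, and Ache, each at a distance of 0.28. Nearest to Aldh1l1 were Faf2 and Rnf44, which share a site, at 0.62, and Plcb1 at 0.66. Tspan4 had no close match among the genes kept: the nearest, Itga1 and Pelo at 1.59, had YAP peaks of 5.99-fold at 3 d and 11.4-fold at 7 d. Only 43 of the 22350 protein-coding genes had a YAP 3 d peak at all. Cd151, which shares the Tspan4 site, was among the genes left out. For the Tacc1 window, 751 genes lay within 0.5, since a single weak TEAD 7 d peak is a common pattern.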

How the data were processed

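Binding of YAP and TEAD was measured by ChIP-seq in 19 liver samples of 6 groups taken from the sample titles. The authors aligned reads to mm9 with BWA 0.6.2 (per the labels), merged replicates and removed duplicates. MACS 2.0.9 called the peaks, per the file headers with a cutoff of 1e-05 on the p-value and against 1 control library of 167176362 tags, which the methods take from published data. The methods name peaks of WT liver as published data too, and whether that covers the WT lists used here is not stated. The deposited pileup is a coverage signal: how many extended fragments lie over the summit. The deposited fold enrichment is the ratio of pileup to local background, and the −log10 p-value (deposited) comes from the same caller. The authors' −log10 q-values were not used.

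The 4 genes and the related gene lists were chosen with earlier results of these data known. The genes named are the 4 members, genes at or nearest to their strong sites, listed relatives with a YAP peak, and the 3 genes of most similar profile. Peaks overlapping by 1 bp were joined into sites, and the strong site of a gene holds its best rank by pileup in any list. RPM is pileup per 1000000 tags of the library, as counted in the file headers. Pileup intervals are exact Poisson, ratio intervals exact conditional binomial and shares Wilson, all at 95%, and the limit for a count of 0 is 3 counts of the total. Python 3.11.15, scipy 1.17.1 and pysam 0.24.0 were used. The chromosome lengths of the reference held all peak ends used, RefSeq starts were placed by exact match of promoter sequences (for 3 of the 4 genes), and counting steps were tested on simulated data. Alternatives covered the window, rank, peak filter, scale, motif and overlap.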

Additional observations from a re-analysis of the deposited data

How the results depend on the processing

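Of 119 recomputed results, 81 were counted as the same, 35 as moved and 3 as turned in direction. The margin for the same was wide. It took in a fall from 32 to 23 TEAD 7 d peaks with the gene body alone. It also took in a fall from 9.38% to 6.12% of TEAD 7 d peaks with a YAP peak at 50 kb. Wider windows took in more TEAD peaks: 50 kb gave 7, 46 and 49 in the WT, 3 d and 7 d lists, and 100 kb, added after the data were seen, gave 11, 71 and 72. A minimum of 5-fold left 17 of the 30 TEAD 3 d peaks. Within 50 kb, 3 TACC or partner genes had a YAP 7 d peak.

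Ranks changed with the measure. By p-value and by fold enrichment, respectively, Creb3l2 ranked 7 and 5 for TEAD in WT livers and 18 and 13 at 7 d. Tspan4 ranked 11 and 7 for TEAD in WT livers, 8 and 6 at 3 d, and 2 and 2 for YAP at 7 d, and its TEAD 7 d rank by fold was 50. Aldh1l1 ranked 7 and 3 for TEAD at 7 d, 3 and 3 for YAP at 7 d, and 12 by fold for TEAD at 3 d. The site upstream of Tacc1 ranked 3 and 2 for TEAD in WT livers, 15 and 11 at 7 d, and 15 and 10 for YAP at 7 d.

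Pileup in RPM in place of fold enrichment turned the TEAD ratio of 3 d to WT below 1 at Creb3l2 (0.98), Tspan4 (0.94) and upstream of Tacc1 (0.88). It lowered that of Aldh1l1 to 1.16 and the 7 d to WT ratios to 1.15 at Creb3l2, 1.08 at Tspan4, 1.74 at Aldh1l1 and 1.07 upstream of Tacc1. The longer fragments of the WT list enter the fold enrichment through its background.

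No paired analysis was possible because each group is a single list pooled over its samples, which also leaves no replicate to leave out. The lists give no value where no peak was called, so an absent YAP peak in WT or 3 d livers is not a level of 0.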
